A study of Homo sapiens with 12 samples.

Results

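The NRF2 switch is described here through 8 genes: the CNC factor genes NFE2L2 (which encodes NRF2) and NFE2L1 (NRF1), the repressor genes KEAP1 and BACH1, the small Maf partner genes MAFF, MAFG and MAFK, and OSGIN1, a target gene of NRF2. Their values were taken from the array's probe sets that the platform annotation used here maps to exactly 1 of these symbols. Of 19 probe sets that name a member, 15 carry 1 symbol and 4 carry several, 3 of which name BACH1 with GRIK1-AS2 and 1 NFE2L2 with CSNK2A1. The 15 probe sets cover 7 of the 8 members, out of 19775 genes with such a probe set, and MAFK is not analysed here. A probe set's value is a log2 expression level, and where a gene has several, the one with the highest mean over all 12 arrays is called its lead probe set. Changes are differences of log2 levels, so 1 unit is a doubling of signal.

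The cells were Caco-2, an established line from a human colon carcinoma whose confluent cultures come to resemble absorptive enterocytes, at passage 22 and 21 days after confluence. All groups were kept for 24 h in DMEM with insulin, transferrin, selenium and antibiotics. The 4 groups of 3 arrays each were cells with 25 µg/mL of AgPURE, surfactant-coated silver nanoparticles, cells with 2.5 µg/mL of the same particles, cells with 0.5 µg/mL of silver ions given as AgNO3, and cells in medium alone. No group had the surfactant alone, so silver and surfactant cannot be told apart in the particle groups, and the labels leave unsaid whether a group's 3 arrays had separate cultures. P-values therefore rest on the array-to-array spread, which may be technical, and the number of arrays limits the precision.

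In unstressed cells KEAP1, an adaptor of a CUL3 ubiquitin ligase, binds NRF2 and has it degraded. Oxidants and electrophiles, and some metals, modify cysteines of KEAP1, so that NRF2 is no longer degraded, enters the nucleus, pairs with a small Maf protein and binds antioxidant response elements in genes of glutathione, thioredoxin and haem metabolism. BACH1 pairs with the same small Mafs, occupies many of the same elements and represses them until haem or oxidants remove it, and NFE2L1 is a related factor, held in the endoplasmic reticulum, that is known for raising proteasome genes. Much of this control acts on protein, which arrays do not measure.

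The promoters of the members are shown first, because members differ in whether they hold letters of the elements that these factors bind. RefSeq (GRCh38.p14) gave 13 transcription starts for the 7 members, and the 250 bases before each start were searched on both strands. The AP-1 site was searched as TGANTCA, the CNC and small Maf element as TGC directly before those letters, the antioxidant response core as TGACNNNGC and the cAMP response core as TGACGTC. The AP-1 site is found in 6.57%, the CNC and small Maf element in 0.336%, the antioxidant response core in 10.9% and the cAMP response core in 3.12% of the 35116 promoter windows of all genes. Windows of the 4 genes that were higher at 25 µg/mL follow, read 5′ to 3′ along the gene, 1 window per gene. Capitals mark matches to these 4 elements, and the metal response matches given further on are left in lower case. They are OSGIN1 at chr16:83952990-83953239 (plus strand), KEAP1 at chr19:10502772-10503021 (minus strand), MAFF at chr22:38201744-38201993 (plus strand) and MAFG at chr17:81927736-81927985 (minus strand).
OSGIN1: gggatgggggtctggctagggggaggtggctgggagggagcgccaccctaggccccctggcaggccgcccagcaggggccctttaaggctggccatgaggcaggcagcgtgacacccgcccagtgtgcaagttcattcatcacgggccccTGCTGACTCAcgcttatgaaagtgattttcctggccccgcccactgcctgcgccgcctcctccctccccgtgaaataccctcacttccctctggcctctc
KEAP1: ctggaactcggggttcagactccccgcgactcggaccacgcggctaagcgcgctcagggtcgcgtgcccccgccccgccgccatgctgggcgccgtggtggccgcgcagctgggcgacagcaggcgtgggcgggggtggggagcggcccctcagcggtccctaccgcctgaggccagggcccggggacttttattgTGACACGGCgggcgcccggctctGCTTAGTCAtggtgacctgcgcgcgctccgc
MAFF: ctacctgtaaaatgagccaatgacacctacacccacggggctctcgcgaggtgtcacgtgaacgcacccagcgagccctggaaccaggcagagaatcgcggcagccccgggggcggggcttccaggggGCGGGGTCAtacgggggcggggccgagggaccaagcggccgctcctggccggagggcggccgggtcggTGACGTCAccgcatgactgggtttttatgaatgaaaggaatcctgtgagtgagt
MAFG: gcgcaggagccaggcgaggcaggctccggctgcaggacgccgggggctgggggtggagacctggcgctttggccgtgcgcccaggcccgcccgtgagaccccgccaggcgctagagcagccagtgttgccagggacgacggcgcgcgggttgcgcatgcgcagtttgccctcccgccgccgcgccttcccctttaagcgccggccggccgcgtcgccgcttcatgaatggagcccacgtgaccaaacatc
The OSGIN1 window holds the CNC and small Maf element 100 to 91 bases before the start, with the AP-1 letters inside it at 97 to 91, and it is the only one of the 13 member windows that does. The CNC and small Maf element was added to the search after the promoters were seen, so this match is no independent finding. The KEAP1 window holds 2 antioxidant response cores, at 54 to 46 and on the other strand at 31 to 23 bases before the start. The MAFF window holds 1 such core on the other strand, at 122 to 114, and overlapping cAMP response cores on both strands between 54 and 47. A second KEAP1 window and a second MAFF window, not shown, hold none of these 4 elements. The MAFG window shown holds none of these letters, and neither do the windows of NFE2L1 and NFE2L2. Of 3 BACH1 windows, that at chr21:29298672-29298921 has an AP-1 match 48 to 42 bases before the start. The heat shock core GAANNTTC, present in 5.78% of all windows, is in 0 member windows. The metal response cores TGCGCNC (16.8% of all windows) and TGCACNC (9.87%) were also searched. The first matched windows of KEAP1, BACH1 and MAFG and the second that of OSGIN1. A match is a description of letters only, and binding was not measured.

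The 25 µg/mL arrays stood apart from the rest. Across probe sets they correlated with the medium arrays at r of 0.978 to 0.981, against 0.992 to 0.996 within groups, 0.993 to 0.996 between 2.5 µg/mL and medium, and 0.99 to 0.996 between ions and medium. The 24 poly-A control probe sets, meant for spikes added before labelling, averaged 6.02 at 25 µg/mL and 5.41 in medium. The 18 hybridization control probe sets averaged 10.98 and 10.55. On single arrays the poly-A controls averaged 4.95 (ion replicate 1) to 6.31 (25 µg/mL replicate 3), around the array means of 5.57. The actin 3′ minus 5′ difference, a sign of RNA integrity, was largest on 2.5 µg/mL replicate 3 (0.96) and ion replicate 3 (0.95), against 0.41 to 0.73 on the other arrays. The same difference for GAPDH did not set them apart, at 0.16 and 0.18 against 0.10 to 0.23 on the other arrays. Of 12 enterocyte markers, 9 lay above the median level of all probe sets and SI, KRT20 and LGALS4 did not. At 25 µg/mL 6 of the 12 were lower (17.9% of all genes were), among them FABP1 by 3.02-fold and ALPI by 2.61-fold. With the arrays scaled on control probe sets, 11 (poly-A) and 10 (hybridization) of the 12 were lower. The same scalings called 36144 (poly-A) and 32263 (hybridization) of all 54613 probe sets lower. Of the other markers, 1 of 4 for leukocytes, 4 of 6 for fibroblasts and 2 of 3 for endothelium lay above that median level. Of these, PDGFRB, THY1 and VWF were close to it, at percentiles of 51.9, 52.6 and 54.2 of all probe sets. COL1A1 (91.8), COL3A1 (72.7), CD14 (64.6) and PECAM1 (61) lay further above it. Among the markers of other cell types CD14 and COL3A1 were lower (1.63-fold and 3.6-fold). CDH5 was higher (1.94-fold, at a mean of 4.86 against 3.9 in medium, near or below the array medians of 4.72 to 4.79). The part of these differences in the results below was not tested. In bulk RNA, fewer cells of a type and less RNA per cell cannot be told apart.

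At 25 µg/mL of particles, 4 of the 7 members were higher than in medium, 0 were lower and 3 did not pass, with limma's adjusted p under 0.05 as the threshold (a gene past it is called here). The 4 were both measured small Maf genes, the repressor gene KEAP1 and the target gene OSGIN1. NFE2L2 itself missed the threshold by little, and NFE2L1 and BACH1 had negative log2 fold changes on their lead probe sets. Directions here are those of the authors' scale. With the arrays scaled on control probe sets, described below, the lead probe sets of MAFF and OSGIN1 remained higher under both scalings. That of MAFG lost its call under one and that of KEAP1 under both, and that of NFE2L2 changed sign. On the authors' scale 12.8% of the lead probe sets of all genes were called higher and 17.9% lower. Of all 54613 probe sets 12.5% were called higher and 13.4% lower. The members' median log2 fold change was 0.74, against -0.01 over the lead probe sets of all genes. Of the members' 15 probe sets, 7 were called higher and 1 lower.

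**Figure D1:**
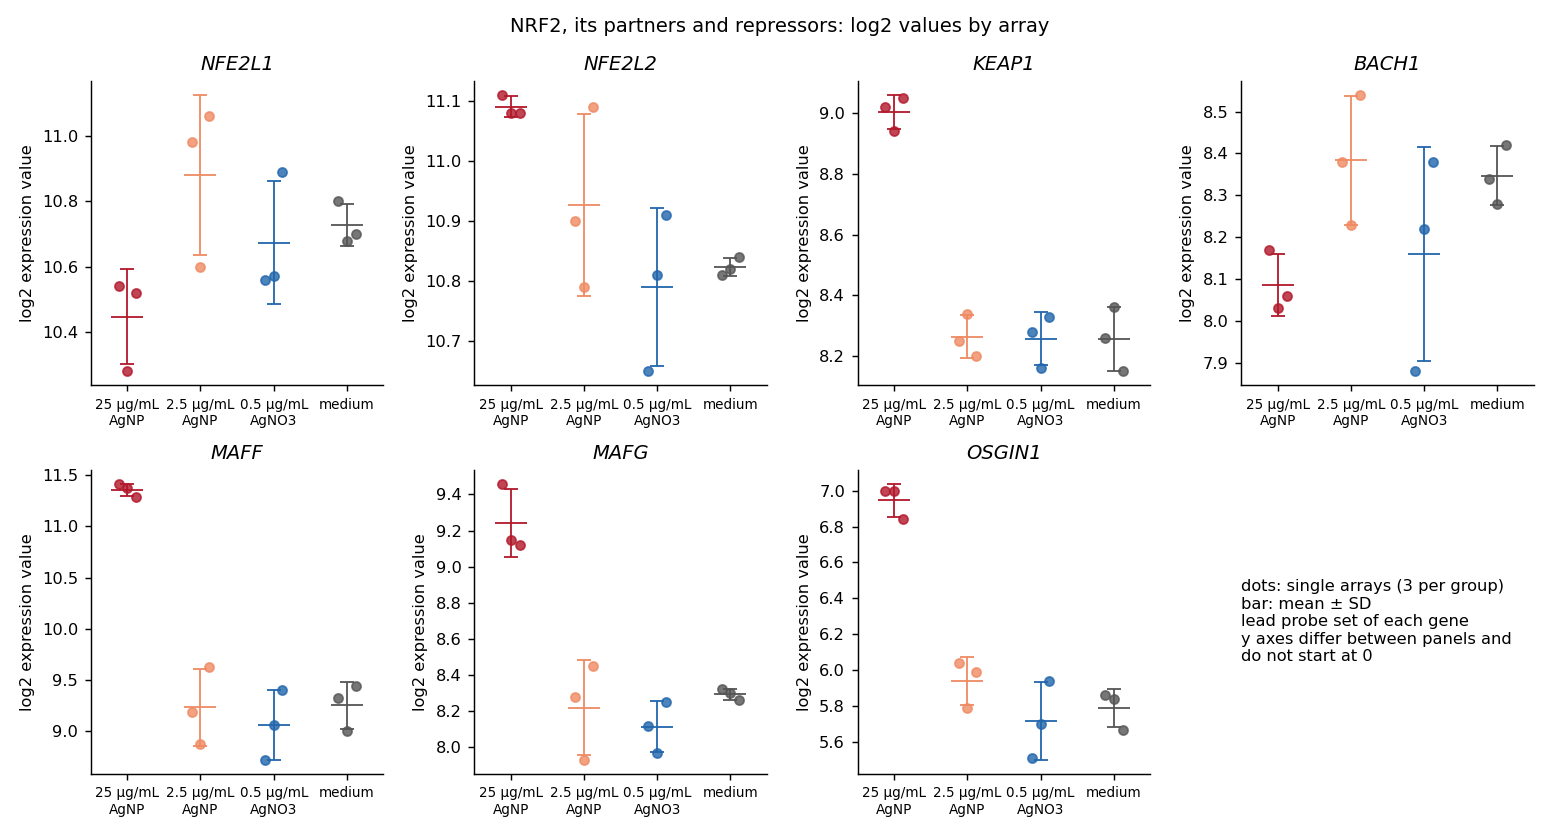
Log2 expression level of the lead probe set of each of the 7 members (y axes, scaled per gene) on every array, by group (x axes), with dots for arrays and bars for group means ± SD. MAFF, OSGIN1, MAFG and KEAP1 sit higher on all 3 arrays at 25 µg/mL than on all other arrays, whereas BACH1 and NFE2L1 sit lower than in medium.

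NFE2L2 encodes NRF2, the factor that the switch releases. Its lead probe set (201146_at) read 11.11, 11.08 and 11.08 with 25 µg/mL, 10.90, 10.79 and 11.09 with 2.5 µg/mL, 10.65, 10.81 and 10.91 with ions, and 10.81, 10.82 and 10.84 in medium. The 3 arrays at 25 µg/mL lay above all medium and ion arrays, and 2.5 µg/mL replicate 3 reached their level. The log2 fold change at 25 µg/mL against medium was 0.27 ± 0.10 (SE, n = 3 each; 1.2-fold, 95% interval 0.06 to 0.48), with limma's adjusted p = 0.0565. The adjusted p was 0.087 with quantile normalization, 0.095 with median centring and 0.11 to 0.13 with any 1 of the 6 arrays compared left out. It passed with 2.5 µg/mL replicate 2 (adjusted p = 0.049) or replicate 3 (0.042) or ion replicate 1 (0.041) left out, arrays that enter only through the estimate of spread. It did so also in fits over 1 probe set per gene (0.036), without dim probe sets (0.027), and with an intensity trend (0.0081).

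NFE2L2 has 2 more probe sets, near or below the array medians in medium. Probe set 1567013_at read 5.59, 5.37 and 5.39 with 25 µg/mL and 4.74, 4.94 and 5.19 in medium. Its groups did not overlap, and it was called higher (log2 fold change 0.50 ± 0.13, adjusted p = 0.00835 in limma). Probe set 1567015_at, at 4.17 ± 0.18 with 25 µg/mL and 4.20 ± 0.11 with medium alone (SD, n = 3 each), differed by -0.03.

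NFE2L1, the factor known for proteasome genes, gave a different answer by probe set. The lead probe set (200759_x_at) read 10.54, 10.28 and 10.52 with 25 µg/mL, 10.98, 10.60 and 11.06 with 2.5 µg/mL, 10.56, 10.57 and 10.89 with ions, and 10.80, 10.68 and 10.70 in medium. All 3 arrays at 25 µg/mL lay below all other arrays. The log2 fold change against medium was -0.28 ± 0.13 (limma adjusted p = 0.137), which did not pass. Probe set 200758_s_at read 10.13, 10.20 and 10.13 with 25 µg/mL and 10.67, 10.58 and 10.56 in medium. That set did pass, 1.37-fold lower (-0.45 ± 0.11, adjusted p = 0.00606 in limma). Its limma adjusted p was 0.0082 with quantile normalization and 0.0035 to 0.026 with any 1 array left out. The third, 214179_s_at, overlapped between the groups at 9.77 ± 0.01 and 9.81 ± 0.10 (SD, n = 3 each) and had a log2 fold change of -0.04.

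KEAP1, which holds NRF2 in check, was 1.67-fold higher at 25 µg/mL. Its 1 probe set (202417_at) read 9.02, 8.94 and 9.05 with 25 µg/mL, 8.25, 8.34 and 8.20 with 2.5 µg/mL, 8.28, 8.16 and 8.33 with ions, and 8.26, 8.36 and 8.15 in medium. The lowest array at 25 µg/mL was above the highest of the other 9, which lay close together. The log2 fold change against medium was 0.74 ± 0.09 (adjusted p = 2e-05 in limma).

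BACH1, the repressor that competes for the small Mafs, did not pass at 25 µg/mL. Its lead probe set (204194_at) read 8.17, 8.03 and 8.06 with 25 µg/mL, 8.38, 8.23 and 8.54 with 2.5 µg/mL, 7.88, 8.22 and 8.38 with ions, and 8.34, 8.28 and 8.42 in medium. The 25 µg/mL arrays lay below those in medium without overlap and inside the range of the ion arrays. The log2 fold change against medium was -0.26 ± 0.12 (1.2-fold lower, limma adjusted p = 0.143). The other BACH1 probe sets were dim, at 4.59 and 4.25 at 25 µg/mL and 4.33 and 4.23 in medium. They differed by 0.26 (adjusted p = 0.135) and 0.02 (0.909) and overlapped between the groups.

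**Figure D2:**
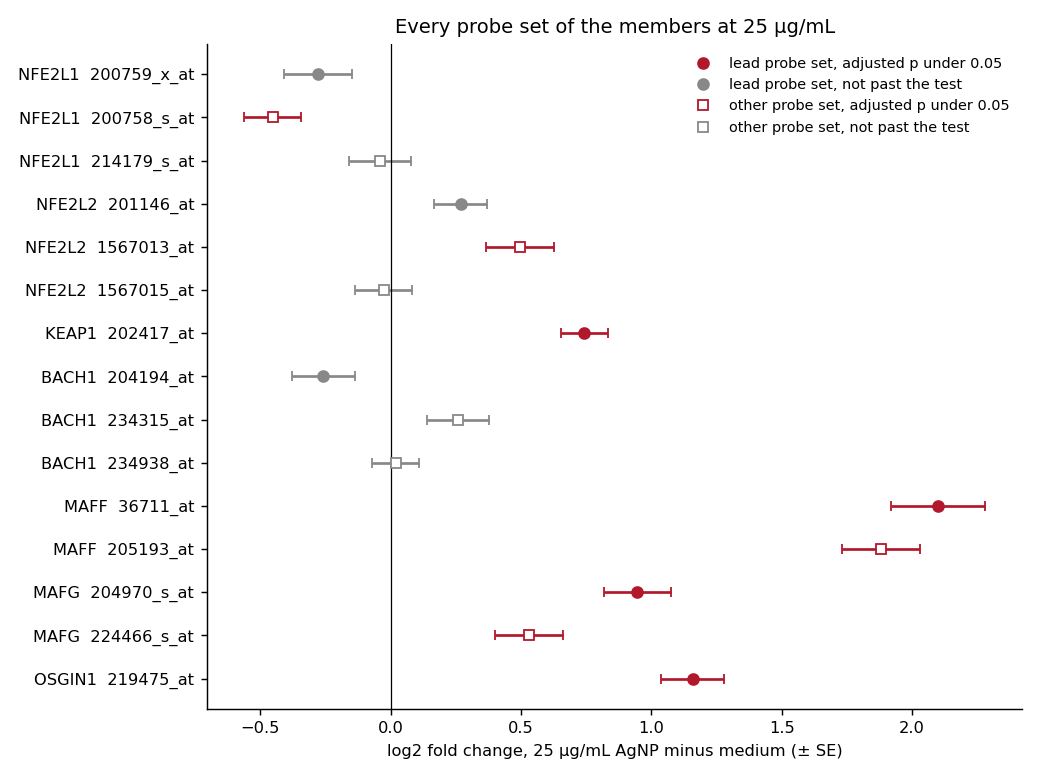
Log2 fold change at 25 µg/mL of particles minus medium (x axis, ± SE from limma) for each of the 15 probe sets of the 7 members (y axis), red where limma's adjusted p was under 0.05 and grey elsewhere, with filled circles for lead and open squares for other probe sets. Both MAFF and both MAFG probe sets lie above 0 and are called, and the called sets of NFE2L2 and NFE2L1 are not their lead sets.

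MAFF, a small Maf that lacks a transactivation domain and serves as partner to NRF2 or BACH1, had the largest change of the members. Its lead probe set (36711_at) read 11.41, 11.37 and 11.29 with 25 µg/mL, 9.19, 8.88 and 9.63 with 2.5 µg/mL, 8.72, 9.06 and 9.40 with ions, and 9.32, 9.0 and 9.44 in medium. All arrays at 25 µg/mL were far above the other 9, which overlapped between groups. MAFF was 4.29-fold higher at 25 µg/mL than in medium (2.10 ± 0.18, limma adjusted p = 7.07e-07). Its second probe set (205193_at) gave a like change, at 8.84, 8.84 and 8.77 against 6.80, 6.98 and 7.03 in medium (3.69-fold, 1.88 ± 0.15, adjusted p = 2.78e-07 in limma). Ordered by log2 fold change, MAFF stood at rank 41 of the 19775 genes.

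MAFG, a more widely expressed small Maf and a partner of NRF2, was 1.93-fold higher. Its lead probe set (204970_s_at) read 9.46, 9.15 and 9.12 with 25 µg/mL, 8.28, 7.93 and 8.45 with 2.5 µg/mL, 8.12, 7.97 and 8.25 with ions, and 8.32, 8.30 and 8.26 in medium. The 25 µg/mL arrays did not overlap with any other, and replicate 1 among them was the highest. The log2 fold change was 0.95 ± 0.13 (limma adjusted p = 5.77e-05). The second probe set (224466_s_at), at 6.90, 6.70 and 6.67 against 6.30, 6.18 and 6.20 in medium, gave a smaller one, 0.53 ± 0.13 (1.45-fold, adjusted p = 0.0063 in limma). MAFG stood at rank 281 of all genes by its lead probe set, and KEAP1 at 554.

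OSGIN1, an oxidative stress-induced gene that restrains growth and is known as an NRF2 target, was 2.23-fold higher at 25 µg/mL. Its 1 probe set (219475_at) read 7.0, 7.0 and 6.84 with 25 µg/mL, 6.04, 5.79 and 5.99 with 2.5 µg/mL, 5.51, 5.70 and 5.94 with ions, and 5.86, 5.84 and 5.67 in medium. The 25 µg/mL arrays lay above all others, whose ranges overlapped. The log2 fold change was 1.16 ± 0.12 (adjusted p = 2.97e-06 in limma), at rank 164 of all genes.

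The size and in part the direction of these changes depend on how the arrays are set to one scale, and the control probe sets were higher at 25 µg/mL. At 25 µg/mL against medium, the median log2 fold change of all probe sets was 0.01 as deposited. It was -0.60 after scaling on the poly-A controls and -0.42 after scaling on the hybridization controls. MAFF kept its call under both, with log2 fold changes of 1.49 and 1.67, and OSGIN1 did too, with 0.55 (adjusted p = 0.039 in limma) and 0.73. MAFG had 0.33 under poly-A scaling, which did not pass (0.19), and 0.52 under hybridization scaling, which did (0.0078). Its second probe set lost its call under both, at -0.08 (0.76) and 0.11 (0.56). KEAP1 lost its call under both, with 0.13 and 0.32 (0.61 and 0.082). NFE2L2 turned to -0.34 and -0.16, neither of which passed. Its probe set 1567013_at lost its call under both, at -0.11 and 0.07. NFE2L1 and BACH1 became called as lower, at -0.89 and -0.87 under poly-A scaling and -0.70 and -0.68 under hybridization scaling. Of the other NFE2L1 probe sets, 200758_s_at stayed called lower (-1.07 and -0.88) and 214179_s_at became so (-0.65 and -0.47). Of all 54613 probe sets, these scalings called 36144 and 32263 lower. Scaling shifts every member by the same amount, so their order stayed as it was. The poly-A means of 25 µg/mL replicates 1, 2 and 3 were 6.21, 5.56 and 6.31, so replicate 2 lay near the highest medium value of 5.54. Poly-A scaling carries such differences between replicates into every probe set. How far this spread, rather than the shift, cost calls was not tested.

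**Figure D3:**
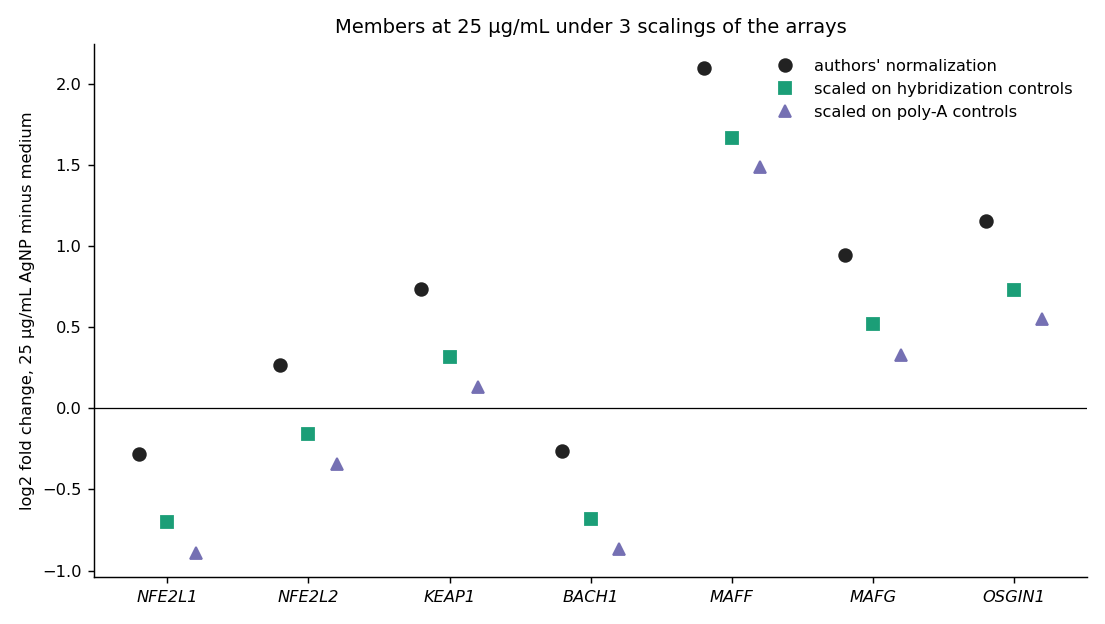
Log2 fold change of each member's lead probe set at 25 µg/mL of particles minus medium (y axis) as deposited and after scaling the arrays on poly-A or on hybridization control probe sets. MAFF and OSGIN1 stay above 0.5 under all 3, whereas NFE2L2 lies at 0.27 as deposited, -0.34 with poly-A and -0.16 with hybridization scaling.

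At 2.5 µg/mL of particles, 0 of the 7 members passed against medium, and 0% of all 54613 probe sets did by limma. Of all probe sets 2365 had an unadjusted p under 0.05, and a fit with an intensity trend called 11, none of them a member. The members' log2 fold changes ran from -0.07 for MAFG to 0.16 for NFE2L1, and the smallest unadjusted p among the 7 was 0.22. The 95% intervals bound what could have been missed. KEAP1 differed by 0.00 (-0.19 to 0.20), NFE2L2 by 0.10 (-0.11 to 0.31) and OSGIN1 by 0.15 (-0.10 to 0.40). For the small Mafs the values were -0.02 for MAFF (-0.41 to 0.36) and -0.07 for MAFG (-0.35 to 0.21). MAFF's interval is the widest of the 7, and its upper bound is far below the change at 25 µg/mL.

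With 0.5 µg/mL of silver ions, 0 of 7 members passed as well, against 0.00183% of all probe sets, a single one. That was SELENOW, a selenoprotein gene named after its value was seen (-0.86, limma adjusted p = 0.0058). Unadjusted, 3659 probe sets had a p under 0.05. The members' log2 fold changes ran from -0.19 to 0.00, and the smallest unadjusted p among them was 0.14. MAFF had -0.19 (95% interval -0.58 to 0.19), BACH1 -0.19 (-0.44 to 0.07), MAFG -0.18 (-0.46 to 0.10) and OSGIN1 -0.07 (-0.32 to 0.17). NFE2L2 had -0.04 (-0.24 to 0.17), NFE2L1 -0.05 (-0.32 to 0.22) and KEAP1 0.00 (-0.19 to 0.20). The MAFG arrays with ions all lay below those in medium, by a difference within their spread as limma estimated it. The particle and ion doses differ, and all 3 comparisons share the medium arrays.

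**Figure D4:**
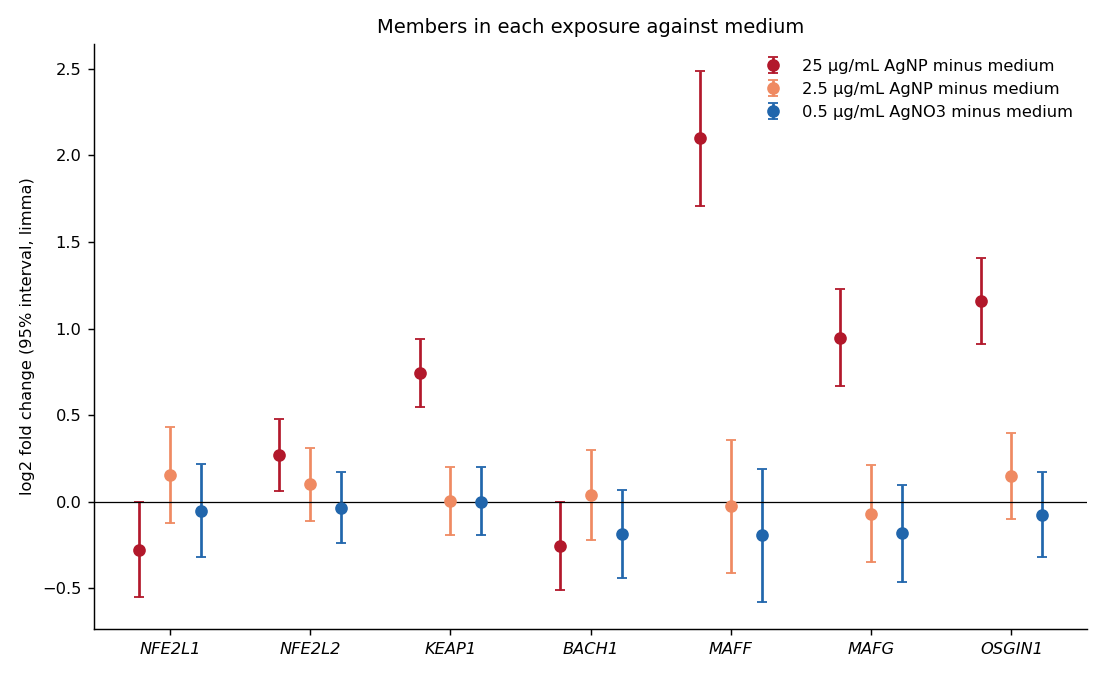
Log2 fold change against medium (y axis, with limma's 95% intervals) of each member's lead probe set (x axis) for 25 µg/mL particles, 2.5 µg/mL particles and 0.5 µg/mL silver ions. At 25 µg/mL the intervals of MAFF, OSGIN1, MAFG and KEAP1 lie above those of both other exposures, which all include 0.

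Between the particle doses, 4 members were higher at 25 than at 2.5 µg/mL and 1 was lower, where 12.1% and 13.9% of all probe sets were called higher and lower. MAFF was 4.36-fold, MAFG 2.03-fold, OSGIN1 2.01-fold and KEAP1 1.67-fold higher, with adjusted p values in limma of 6.08e-07 for MAFF, 2.94e-05 for MAFG, 1.1e-05 for OSGIN1 and 2.07e-05 for KEAP1. NFE2L1 was 1.35-fold lower (-0.43 ± 0.13, adjusted p = 0.0195 in limma), a call lost without 2.5 µg/mL replicate 1 (0.078) or 3 (0.097) or 25 µg/mL replicate 2 (0.095). Its probe set 200758_s_at was 1.54-fold lower (adjusted p = 0.000509). NFE2L2 differed by 0.17 ± 0.10 (adjusted p = 0.259) and BACH1 by -0.30 ± 0.12 (0.0874), and BACH1 passed without ion replicate 1 (0.036). Poly-A scaling kept only MAFF among these 4, and hybridization scaling kept all 4, with KEAP1 at 0.39 (0.048). NFE2L2 turned to -0.58 under poly-A scaling and was then called lower (0.021), and to -0.18 under hybridization scaling (0.34). BACH1 was called lower under both, at -1.04 and -0.64, as was NFE2L1, at -1.18 and -0.78. For 25 µg/mL against medium, poly-A scaling called 501 of all 54613 probe sets higher and 36144 lower. Hybridization scaling called 1412 higher and 32263 lower there. Such counts over all probe sets were not made between the particle doses.

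Set against silver ions, the 25 µg/mL particles gave 5 members higher and 0 lower, where 12.7% and 12.1% of all probe sets were called higher and lower. MAFF was 4.91-fold, OSGIN1 2.35-fold, MAFG 2.18-fold and KEAP1 1.67-fold higher. The fifth was NFE2L2, at 1.23-fold (0.30 ± 0.10, limma adjusted p = 0.0327). That call was lost without 25 µg/mL replicate 1 (0.084), 2 (0.072) or 3 (0.07), or without ion replicate 1 (0.12) or 2 (0.064). NFE2L1 and BACH1 differed by -0.23 and -0.07. Poly-A scaling left MAFF as the 1 member called higher and made NFE2L1 and BACH1 lower (-1.01 and -0.86). Hybridization scaling left MAFF, MAFG and OSGIN1 higher, with KEAP1 at 0.31 (0.088), and made NFE2L1 and BACH1 lower (-0.66 and -0.51). NFE2L2 turned to -0.48 (0.051) under poly-A and to -0.13 (0.45) under hybridization scaling. For 25 µg/mL against medium, poly-A scaling called 501 of all 54613 probe sets higher and 36144 lower. Hybridization scaling called 1412 higher and 32263 lower there. Such counts over all probe sets were not made against ions.

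Of 30 measured NRF2 targets of a list of 32, 19 were called higher at 25 µg/mL and 2 lower, with a median of 0.35 (-0.01 for all genes) that turned to -0.26 under poly-A and to -0.07 under hybridization scaling. HMOX1, which degrades haem and is the classical gene held down by BACH1, was 17.2-fold higher, SRXN1, which repairs oxidised peroxiredoxins, 6-fold, AKR1B10, an aldehyde reductase, 5.99-fold, and GCLM, the modifier subunit of glutamate-cysteine ligase, 4.82-fold. As deposited, 12.8% of the lead probe sets of all genes were called higher and 17.9% lower. The 4 genes named were called higher under both scalings as well. The list then had 6 higher and 8 lower (poly-A) or 8 higher and 8 lower (hybridization). Of all 54613 probe sets, poly-A scaling called 501 higher and 36144 lower, and hybridization scaling 1412 higher and 32263 lower. At 2.5 µg/mL and with ions 0 of the 30 passed. This list and those below were written with earlier results of these data known, so their counts are descriptions only.

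Genes of NRF2 turnover and its co-factors went both ways, with 5 of 15 called higher and 4 lower and a median of 0.14 (-0.48 under poly-A and -0.29 under hybridization scaling). As deposited, 12.8% of the lead probe sets of all genes were called higher and 17.9% lower. SQSTM1, the autophagy receptor that sequesters KEAP1, was 2.07-fold higher, PGAM5, a mitochondrial phosphatase bound by KEAP1, 1.59-fold, CUL3, the scaffold of the KEAP1 ligase, 1.5-fold, and EP300, an acetyltransferase co-activator, 1.35-fold. With poly-A scaling these 4 calls were lost, at 0.44, 0.06, -0.02 and -0.18, and the list had 0 higher and 7 lower, against 1 and 6 with hybridization scaling. Of all 54613 probe sets, poly-A scaling called 501 higher and 36144 lower, and hybridization scaling 1412 higher and 32263 lower. The count of 4 lower fell to 0 without 25 µg/mL replicate 1, to 1 without 25 µg/mL replicate 2 or medium replicate 2, and to 2 without medium replicate 3, 25 µg/mL replicate 3, 2.5 µg/mL replicate 1 or ion replicate 3. SQSTM1 also stands among the NRF2 targets. Of 5 other CNC and Maf factor genes measured, 2 were lower and 0 higher, namely MAF, a large Maf, by 1.52-fold (adjusted p = 0.023 in limma) and NFE2L3, another CNC factor, by 1.28-fold (0.041). The median of these 5 was -0.27, and scaling made it -0.89 (poly-A) and -0.70 (hybridization), with 4 of 5 lower under each. Each of these calls was lost on leaving out medium replicate 2 or 3, or 25 µg/mL replicate 1 or 3 (adjusted p up to 0.1 and 0.15).

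Among the 4 genes of BACH1 turnover and target, FBXO22, which marks haem-bound BACH1 for degradation, was 1.64-fold lower (adjusted p = 1.9e-05 in limma) and HMOX1 higher, and the other two did not pass. HMOX1 also stands among the NRF2 targets. The median of these 4 was -0.06, and scaling made it -0.67 (poly-A) and -0.49 (hybridization), with 3 of 4 lower under each. Of 9 genes of NFE2L1 processing, 4 were higher and 1 lower, with a median of 0.14 (-0.48 under poly-A and -0.29 under hybridization scaling, with 0 higher and 3 lower, and 1 higher and 3 lower). FBXW7, a ubiquitin ligase adaptor for NFE2L1, was 1.73-fold higher, SEL1L, of the retrotranslocation complex, 1.52-fold lower, UFD1 1.33-fold higher and its partner VCP, the segregase that extracts NFE2L1 from the membrane, 1.27-fold higher. The count of 4 higher fell to 2 without medium replicate 3 or 25 µg/mL replicate 3, where UFD1 lost its call (adjusted p up to 0.081), as did its cofactor NPLOC4, named after its values were seen (up to 0.06). Under poly-A scaling the 3 genes named as higher had 0.18, -0.20 and -0.27. Of 27 proteasome subunit genes, the known targets of NFE2L1, 11 were higher and 0 lower, with PSMD12 at 1.88-fold, PSMD1 at 1.55-fold, PSMC1 at 1.51-fold and PSMC4 at 1.49-fold, and the list's median of 0.21 turned to -0.40 under poly-A and to -0.21 under hybridization scaling, with 0 higher and 10 lower, and 1 higher and 6 lower. Under poly-A scaling 501 of all 54613 probe sets were called higher and 36144 lower, with a median log2 fold change of -0.60. Under hybridization scaling 1412 were called higher and 32263 lower, with a median log2 fold change of -0.42. As deposited, 12.8% of the lead probe sets of all genes were called higher and 17.9% lower. No gene of these lists passed at 2.5 µg/mL or with ions.

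**Figure D5:**
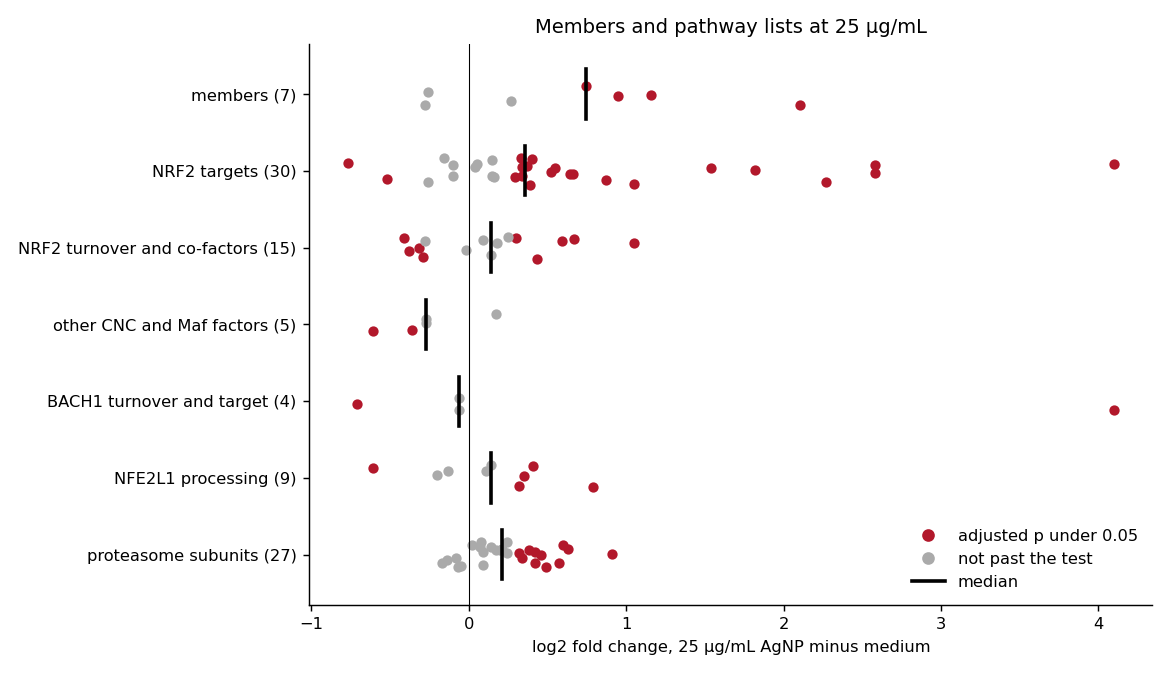
Log2 fold change at 25 µg/mL of particles minus medium (x axis) of the members and of each gene in the lists of NRF2 and NFE2L1 biology (y axis, number measured in brackets), 1 point per gene by its lead probe set, red where limma's adjusted p was under 0.05 and grey elsewhere, with a black line at each median. HMOX1 lies farthest right at 4.10, and the NRF2 target list has 19 called points above 0 and 2 below.

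The genes whose pattern was most like that of each member were found by Pearson's r over the 12 arrays among 9887 genes in the upper part of the expression range. These values are descriptions with no test, since the arrays fall in 4 groups, and those at 25 µg/mL stand apart from the rest. MAFF was followed most closely by DUSP1 (r = 0.989), IER5 (0.986) and PPP1R15A (0.985), MAFG by SUPV3L1 (0.991), UPP1 (0.985) and MYOF (0.984), and OSGIN1 by ZNF165 (0.989), GADD45B (0.987) and EIF5A2 (0.986). KEAP1 was most like DNAJB6 (0.994), PSME4 (0.989) and NSUN2 (0.989). NFE2L2 was most like USP16 (0.968), SNHG17 (0.963) and BTBD10 (0.959), NFE2L1 like DDIT3 (0.933), PRR14 (0.932) and JAG2 (0.917), and BACH1 like UBQLN2 (0.959), GRPEL2 (0.951) and KLHL28 (0.94). The 3 members that did not pass at 25 µg/mL have the lower values.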

How the data were processed

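RNA of 12 samples was hybridised to 3′ expression arrays, from 250 ng of total RNA per the labels' protocols. The table deposited by the authors gives 1 log2 expression value for each probe set and array, made with RMA and Partek per the submitters' processing notes, with versions not given in the sources used here. The values show a log2 scale, no centring per gene and more signal as higher values. Column means were 5.57 and medians 4.72 to 4.79 on all arrays. RMA usually equalises arrays, so a change in total mRNA per cell does not show, and no detection calls are given.

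Of 54675 probe sets, 62 were controls. The other 54613 went into limma 3.58.1 (R 4.3.3), in 1 fit of 4 groups (8 residual, 7.37 prior degrees of freedom), two-sided, with Benjamini-Hochberg adjustment over all of them and a threshold of 0.05, and the script was tested on simulated data. Of these, 41091 have 1 gene symbol, 1801 several (not used to name genes) and 11721 none listed. For 41037 of the 1-symbol probe sets, the symbol was taken from RefSeq by gene ID, whether or not it changed. All members were named with every 1-symbol probe set, and up to 4 called genes of each list with the largest changes, plus the 3 most alike genes per member. The members and lists were chosen with earlier results of these data known. The CNC and small Maf motif was added after the promoters were seen. Alternatives were other normalizations and control scalings, summaries of probe sets, filters, fits, a 1.5-fold minimum and leaving out each array. One omission of 2 arrays was added after seeing the data. No 2 arrays held identical values. Figures were drawn with matplotlib 3.10.9.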

Additional observations from a re-analysis of the deposited data

Results flagged for a closer look

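Control probe sets, which no comparison of the members uses, differed at 25 µg/mL of particles. The 24 poly-A controls averaged 6.02 at 25 µg/mL and 5.41 in medium, a log2 difference of 0.61. The 18 hybridization controls were 0.43 higher (10.98 and 10.55). Their part in the members' changes was not tested beyond the scalings already described.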

How the results depend on the processing

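No paired analysis was possible because the labels give no replicate numbers. Arrays left out one at a time gave 4 to 5 members called at 25 µg/mL against medium, 4 to 6 against 2.5 µg/mL, 4 to 5 against ions, and 0 in both milder exposures. They gave 11766 to 15017 probe sets called at 25 µg/mL, and 0 to 2 with ions. At 25 µg/mL against medium, where 14162 of all probe sets were called (6838 higher, 7324 lower), 6607 genes were called with 1 lead probe set per gene (2796 higher, 3811 lower), 6235 when each gene's probe sets were averaged and 6089 probe sets at a minimum of 1.5-fold. Poly-A scaling called 36645 (501 higher, 36144 lower) and hybridization scaling 33675 (1412 and 32263). At 2.5 µg/mL, hybridization scaling called 10 and the intensity trend 11. With ions, 4 and 3 were called by these and 0 by lead probe sets, poly-A scaling, the groups compared only, or omission of both arrays with a high actin difference (chosen after seeing the data). Poly-A scaling gave 3 members against ions.

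Signs turned for small values. At 25 µg/mL NFE2L2 became -0.34 (poly-A) and -0.16 (hybridization), and BACH1 0.01 with the mean of probe sets. At 2.5 µg/mL BACH1 became -0.05 (mean of probe sets) and -0.04 (hybridization scaling and the omission of 2 arrays), and MAFF 0.02 (mean) and 0.11 (poly-A), and MAFG 0.06 (poly-A). With ions NFE2L1 became 0.03 (mean) and 0.12, NFE2L2 0.14 and OSGIN1 0.10 (poly-A), and NFE2L2 and OSGIN1 each 0.01 with array weights. Leaving out 1 array moved these at 2.5 µg/mL to between -0.04 and 0.12 for BACH1, -0.22 and 0.15 for MAFF (0.01 without medium replicate 1, 0.07 without replicate 3) and -0.19 and 0.07 for MAFG, and with ions to between -0.09 and 0.03 for NFE2L2 and -0.19 and 0.03 for OSGIN1. The cause was not tested. Without detection calls, the dim probe sets of NFE2L2 and BACH1 have no stated background.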

Other observations

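Ion replicate 3 had the highest value of its group for 7 of 7 members (35.7% of all genes), and 2.5 µg/mL replicate 3 for 5 (36.4%), the arrays with the largest actin 3′ minus 5′ differences. KEAP1 was an exception on 2.5 µg/mL replicate 3, with the lowest value of its group (8.20). The lowest values of these groups were on ion replicate 1 for 5 members (39.9% of all genes) and on 2.5 µg/mL replicate 2 for 6 (36.3%). At 25 µg/mL replicate 1 was highest for 6 (35.4%). In medium, replicates 1, 2 and 3 were highest for 3, 1 and 3 members and lowest for 1, 3 and 3. The GAPDH 3′ minus 5′ differences of ion replicate 3 (0.18) and 2.5 µg/mL replicate 3 (0.16) lay inside the range of the other arrays. Whether the actin difference bears on these values was not tested.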
